A study of Mus musculus with 4 samples.

Results

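The T-cell receptor loci of the mouse were described by Hi-C in haematopoietic progenitors with and without Stag2. They were taken by position (mm9) as Tcra with the nested Tcrd on chromosome 14 from 53000001 to 54900000, Tcrb on chromosome 6 from 40800001 to 41560000, and Tcrg on chromosome 13 from 19240001 to 19480000. Each locus was read together with 500 kb on either side, called its left flank (lower coordinates) and right flank. The 3 windows held 295 of 131957 bins of 20 kb, with 145 bins at Tcra/Tcrd, 88 at Tcrb and 62 at Tcrg. A score in all 4 libraries was present in 223 of the 295 bins, namely 73, 88 and 62, against 117252 bins over the genome. Bins were taken by position alone, though the loci were picked with earlier results of these data known.

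T-cell receptor genes are assembled in developing T cells from separate variable (V), diversity (D) and joining (J) segments. The RAG recombinase cuts the DNA at these segments, which are then joined to each other, and a constant (C) segment lies beyond them. The loci are spread out, and V segments far from the J segments must be brought near them, a process for which locus contraction and loop extrusion by cohesin between CTCF sites are known. Tcra encodes the alpha chain and Tcrb the beta chain of the common receptor, and Tcrd and Tcrg encode the delta and gamma chains of the other one. Tcrd lies inside Tcra, so joining a V segment to a J segment of Tcra removes it. By name, RefSeq (GRCm38.p6, used here for names and order only) lists 130 V, 60 J and 1 C segments of Tcra, 6 V, 2 D, 2 J and 1 C of Tcrd, 35 V, 2 D, 14 J and 2 C of Tcrb, and 7 V, 4 J and 4 C of Tcrg. Of the 191 Tcra segments, 74 carry the letter d or n in the name, which marks a copy within a duplicated stretch of V segments. In that order the protein-coding neighbours are Olfr1510, an olfactory receptor gene, and Dad1, a subunit gene of the oligosaccharyltransferase, for Tcra. They are Moxd2, a monooxygenase-like gene, and Ephb6, an ephrin receptor gene, for Tcrb. For Tcrg they are Amph, which encodes the endocytic adaptor amphiphysin, and Stard3nl, which encodes a late-endosome protein. Between its segments Tcrb also holds 13 protein-coding genes, among them the trypsin genes Try4, Try5, Try10, Prss1, Prss2 and Prss3.

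Lineage-depleted bone marrow cells, from which mature blood cells had been removed with antibodies on magnetic beads, gave 4 libraries made with the Hi-C 2.0 protocol and the enzyme DpnII, 2 from Stag2 wildtype and 2 from Stag2 knock-out cells by their genotype label. Stag2 encodes a subunit of cohesin. The sources used here do not give how the knock-out was made, what drove any deletion or how old the mice were, and none says whether a genotype's 2 libraries were made from different mice. The p-values therefore reflect library-to-library spread alone, and that spread may be technical. Neither Stag2 loss nor the cell type could be checked here, because the files hold no expression values. The measure was the insulation score, which compares contacts across a bin with the surroundings and is low where few contacts cross. Sequencing depth was unknown. Over the genome, limma called 13148 of 117252 bins higher and 13160 lower in knock-out at an adjusted p below 0.05, which is 11.2% in each direction.

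The 3 windows differed in direction (the plot of scores along each window). In knock-out, Tcrg scores were lower over the whole locus and its left flank. At Tcrb and Tcra/Tcrd, limma called no bin inside the loci and called higher bins in 3 of the 4 flanks. In all, 35 of the 223 bins (15.7%) were called higher and 32 (14.3%) lower, beside 11.2% each over the genome. All 35 higher calls lay in flanks, which held 150 bins, and the 73 locus bins held 0 higher and 11 lower calls. Leaving out either wildtype library lowered the calls in both directions, in the windows and over the whole genome. The loss of lower calls was steeper in the windows than over the genome. Leaving out knock-out library 1 raised the higher calls of the windows and reduced their lower calls, and leaving out knock-out library 2 did the reverse. Such fits rest on 1 library of a genotype. With 1 library left out at a time, the locus mean difference ran from -0.151 to -0.132 at Tcrg. It ran from -0.0769 to 0.272 at Tcra/Tcrd and from -0.00202 to 0.0659 at Tcrb.

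**Figure D1:**
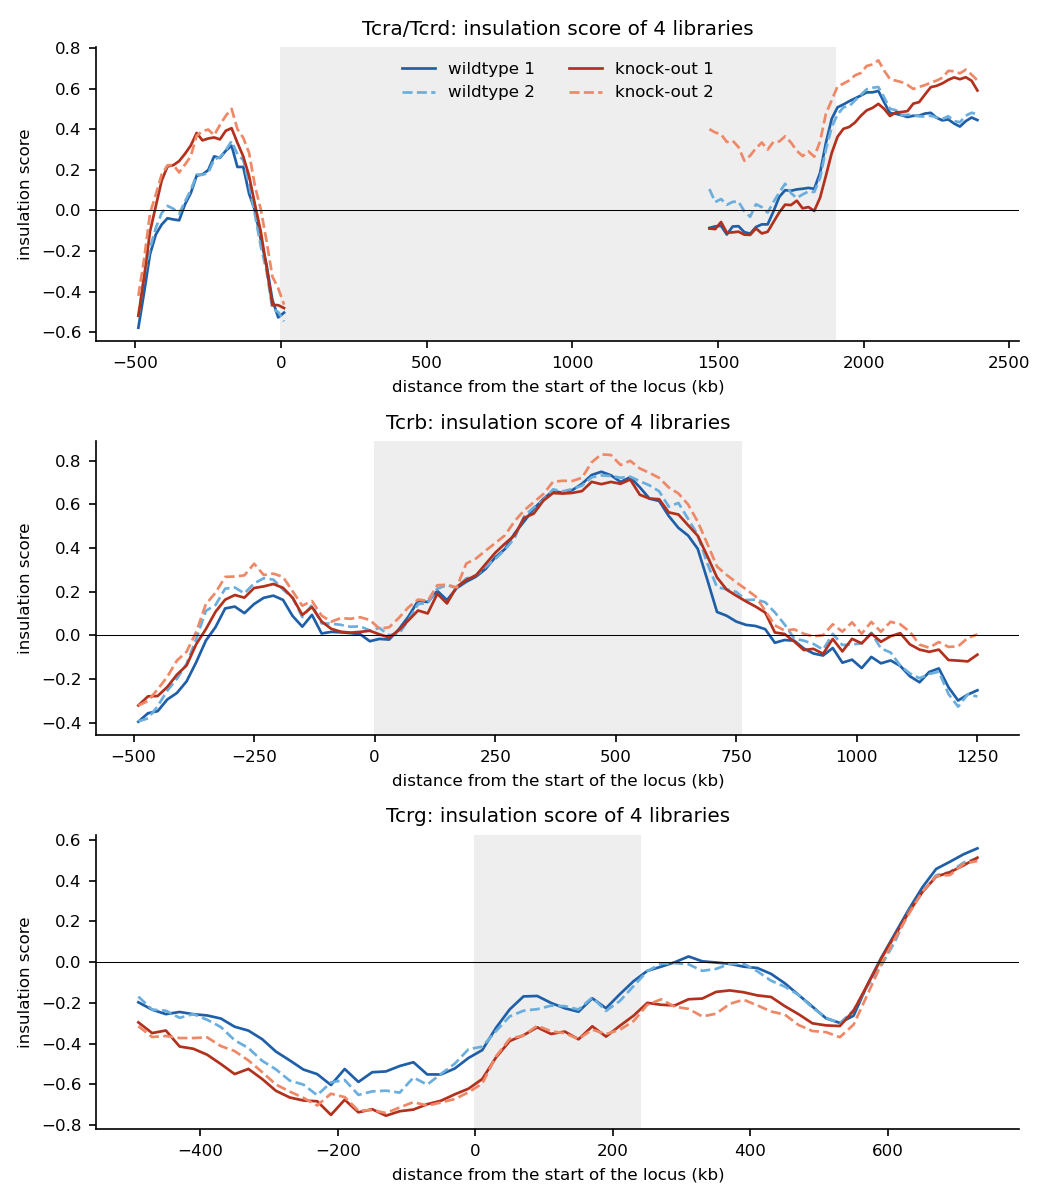
Insulation score (vertical axis) of each 20 kb bin scored in all 4 libraries against the distance in kb from the start of the locus (horizontal axis), 1 line per library, with the locus shaded and breaks where bins lacked a score. Both knock-out lines run below both wildtype lines across Tcrg, and at the right end of Tcra/Tcrd knock-out library 2 runs above the other 3 libraries.

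Tcrg had lower insulation scores in knock-out over its full length. Over its 12 bins the mean score reached -0.221 and -0.240 in the 2 libraries of wildtype, and -0.370 and -0.373 in those of knock-out. The genotypes did not overlap, and the libraries of a genotype differed by 0.0190 and 0.00356. The genotype means, -0.230 ± 0.0134 for wildtype and -0.372 ± 0.00251 for knock-out (SD, n = 2), differed by -0.141. The exact two-sided permutation test gave p = 0.333, the smallest that 2 libraries against 2 allow.

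Bin by bin, the Tcrg difference ran from -0.171 to -0.118, and in 12 of 12 bins both knock-out scores were under both wildtype scores, an arrangement found in 34.8% of bins over the genome. limma called 11 of the 12 bins lower, beside 11.2% over the genome and 9.05% over the rest of chromosome 13. The bin not called, from 19320001 to 19340000, had an adjusted p of 0.0637, with scores of -0.166 and -0.231 in wildtype and -0.320 and -0.312 in knock-out. The calls depended on the libraries and the scaling. Leaving out either wildtype library also reduced the lower calls over the genome, though less steeply than at this locus. With wildtype library 1 or wildtype library 2 left out limma called 0 of the 12 bins. It called 7 without knock-out library 1, 5 after each library was divided by its SD and 1 after quantile normalization.

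Within the locus, the score was higher at the Stard3nl end than at the Amph end in every library, without a steady climb in between. In the first bin, from 19240001 to 19260000, it was -0.432 and -0.415 in wildtype and -0.574 and -0.596 in knock-out. In the last, from 19460001 to 19480000, it was -0.0939 and -0.118 in wildtype and -0.263 and -0.290 in knock-out. The last bin also held the lowest difference of the locus, -0.171 (SE 0.0383, adjusted p = 0.0152).

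The lower scores at Tcrg were not limited to the receptor segments. The left flank averaged -0.426 and -0.472 in wildtype and -0.593 and -0.570 in knock-out, a difference of -0.133. Of its 25 bins, 10 were called lower, beside 11.2% over the genome and 9.05% over the rest of chromosome 13. In 25 of 25 of these bins both knock-out scores were under both wildtype scores, beside 34.8% over the genome. The right flank averaged 0.0493 and 0.0323 in wildtype and -0.0368 and -0.0712 in knock-out, a difference of -0.0948. Here 11 of the 25 bins were called lower, beside the same shares of called bins. Without wildtype library 1 the left flank held 0 calls and the right flank 2, without wildtype library 2 they held 0 and 4, and without knock-out library 1 they held 5 and 12. The left flank held 1 call after division by the SD and 1 after quantile normalization, and the right flank 9 after each.

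Called bins within 50 kb of each other formed 2 runs of lower score in the Tcrg window. The longer one went from 19100001 to 19700000, covered the whole locus and held 26 called bins among 30. Its called bins averaged -0.183 and -0.199 in wildtype and -0.340 and -0.360 in knock-out, a difference of -0.159. Its lowest difference, -0.214 (adjusted p = 0.00779), lay outside the locus on the Stard3nl side, from 19540001 to 19560000, where wildtype scores were 0.0277 and -0.0109 and knock-out scores -0.182 and -0.230. The shorter run went from 18740001, the edge of the window, to 18880000 and held 6 called bins among 7, with -0.245 and -0.256 in wildtype, -0.407 and -0.368 in knock-out and a difference of -0.137. Neighbouring scores share contacts, so the length of a run does not give the extent of a change.

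The Tcrg difference was spread over a range wider than the locus. When the running mean of each library over 51 bins (1.02 Mb) was subtracted, the locus stood at 0.0261 and 0.0373 in wildtype and 0.0166 and 0.0210 in knock-out. Its difference was then -0.0129, in place of -0.141, and limma called 0 of the 12 bins, with 0 at an unadjusted p below 0.05. Over the genome limma also called 0 bins on this scale.

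**Figure D2:**
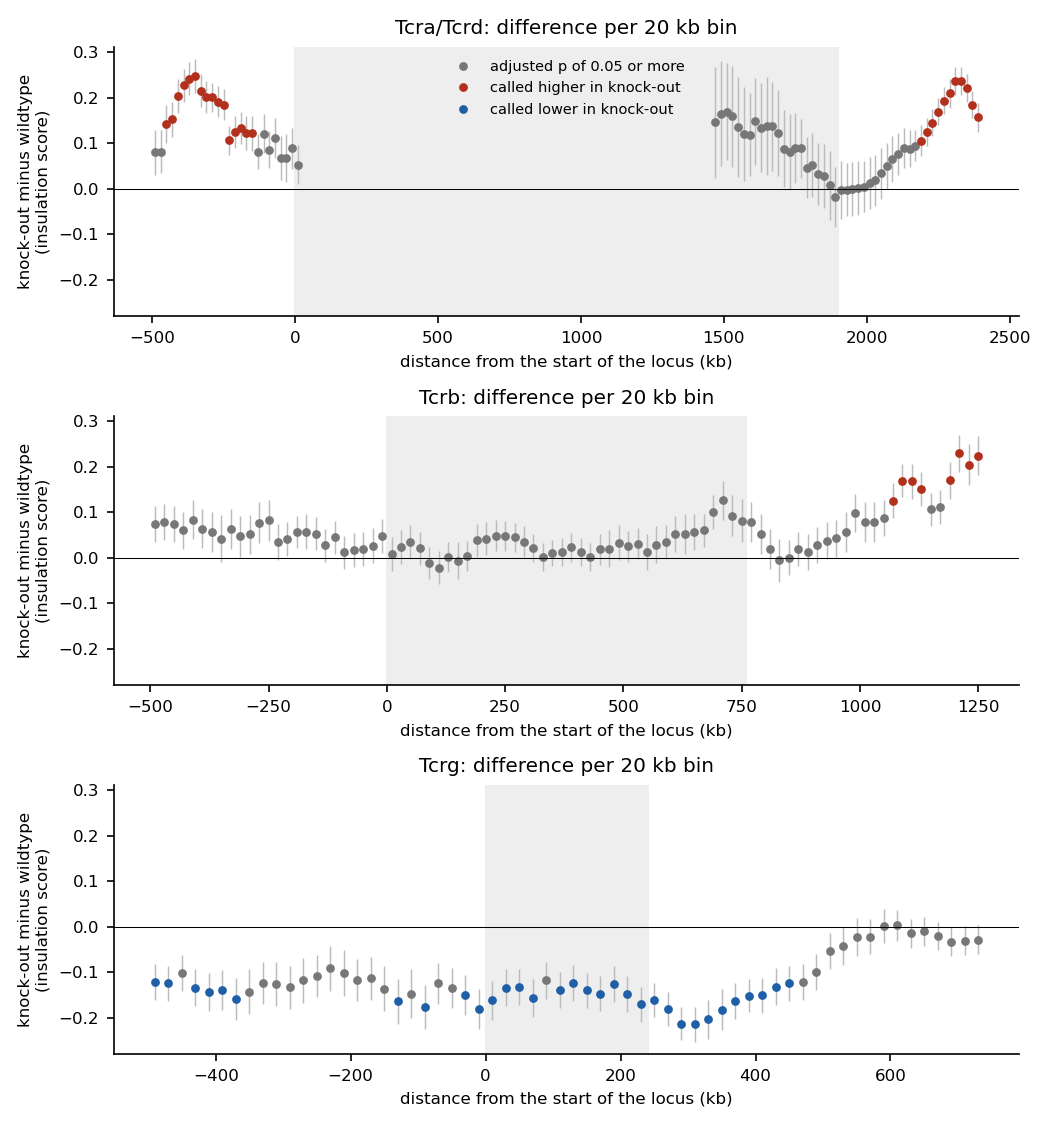
Difference in insulation score, knock-out minus wildtype, for each 20 kb bin (points, with the standard error from limma as bars) against the distance in kb from the start of the locus, with the locus shaded and called bins coloured. Called lower bins cover the Tcrg locus, where 11 of 12 passed, and called higher bins stand in the flanks of Tcra/Tcrd and in the right flank of Tcrb.

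Most of Tcra/Tcrd had no score. Of its 95 bins, 61 lacked one in every library, 11 had one in some and 23 had one in all 4. The 61 bins formed 1 unbroken block of 1220 kb, from 53080001 to 54300000, and the locus was read only at its 2 ends. The block was longest in knock-out library 2, with 72 unscored bins from 53020001 to 54460000. It covered 63 bins in wildtype library 1, 66 in wildtype library 2 and 62 in knock-out library 1. When the locus was cut into 5 segments of 380 kb, the middle ones from 53380001 to 54140000 held 0 scored bins in any library, the first held 1 bin scored in all libraries, the fourth 3 and the fifth 19.

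The 22 bins scored in all 4 libraries after the block, from 54460001 to 54900000, lie on the Dad1 side, the side of the D, J and C segments of Tcrd and of the J and C segments of Tcra. They averaged 0.0318 and 0.0846 in the wildtype libraries, -0.0242 in knock-out library 1 and 0.339 in knock-out library 2. The 2 knock-out libraries lay on opposite sides of wildtype, so the groups overlapped. Knock-out library 2 was the highest of the 4 libraries in 22 of 22 bins, and knock-out library 1 was the lowest in 20 of 22. The knock-out libraries differed by 0.364 over this stretch and the wildtype libraries by 0.0528.

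That gap was large for this pair of libraries. Over the genome the 2 knock-out libraries differed by a median of 0.0463 per bin, and 99% of bins differed by less than 0.218. All 22 bins exceeded that value, from 0.246 to 0.490 between the knock-out libraries, while the same percentile for the wildtype libraries was 0.172. The widest gap, 0.490, was in the first of these bins, from 54460001 to 54480000, next to the unscored stretch of knock-out library 2, with -0.0894 in knock-out library 1, 0.401 in knock-out library 2 and -0.0863 and 0.106 in wildtype. The gap averaged 0.431 over the first 10 of the 22 bins and 0.288 over the last 10. The part that the unscored bins of knock-out library 2 had in this gap was not tested.

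The genotypes overlapped inside Tcra/Tcrd. Its 23 scored bins had a mean of 0.0328 ± 0.0344 for wildtype and 0.130 ± 0.246 for knock-out (SD, n = 2), which differed by 0.0974, with p = 1 in the exact two-sided permutation test. limma called 0 of the 23 bins, beside 11.2% in each direction over the genome, with 0 at an unadjusted p below 0.05. Its fit without a trend also called 0. The direction followed 1 library: the difference was -0.0769, with 2 bins called lower, without knock-out library 2, and 0.272, with 22 bins called higher, without knock-out library 1. The highest difference, 0.169 (SE 0.107, adjusted p = 0.266), was in the bin from 54500001 to 54520000, at -0.0758 and 0.0561 in wildtype and -0.0573 and 0.376 in knock-out. The lowest, -0.0186 (adjusted p = 0.857), was in the last bin, from 54880001 to 54900000, at 0.452 and 0.412 in wildtype and 0.283 and 0.544 in knock-out.

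By segment, the fifth averaged 0.0495 and 0.0873 in wildtype and -0.0154 and 0.332 in knock-out, and the 3 bins of the fourth averaged -0.0803 and 0.0676 in wildtype and -0.0796 and 0.387 in knock-out. In both segments 1 knock-out library lay far above the wildtype range. In the single bin of the first segment, from 53000001 to 53020000, all 4 libraries were low, at -0.504 and -0.547 in wildtype and -0.481 and -0.465 in knock-out. Its difference of 0.0526 had an adjusted p of 0.393.

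The flank of Tcra on the side of the olfactory receptor genes was higher in knock-out. It averaged -0.0233 and -0.00431 in wildtype and 0.103 and 0.157 in knock-out, a difference of 0.144, with no overlap between genotypes. Of its 25 bins, 16 were called higher, beside 11.2% over the genome and 11.9% over the rest of chromosome 14. Both knock-out libraries lay above both wildtype libraries in 22 of the 25, beside 31.0% over the genome. The calls formed 1 run of 16 bins from 52540001 to 52860000, at 0.0925 and 0.115 in wildtype and 0.267 and 0.293 in knock-out, a difference of 0.176. Its highest difference was in the bin from 52640001 to 52660000, at -0.0488 and -0.0160 in wildtype and 0.243 and 0.187 in knock-out, a difference of 0.248 (adjusted p = 0.00488). The flank held 9 calls with wildtype library 1 or wildtype library 2 left out and 10 without knock-out library 2, and after the running mean was subtracted its difference was 0.0482.

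The flank beyond Dad1 was also higher, chiefly in its outer part. It averaged 0.492 and 0.498 in wildtype and 0.534 and 0.657 in knock-out, a difference of 0.101. Of its 25 bins, 11 were called higher, beside 11.2% over the genome and 11.9% over the rest of chromosome 14. These 11 bins made 1 run from 55180001 to the edge of the window at 55400000, with 0.451 and 0.460 in wildtype and 0.617 and 0.655 in knock-out, a difference of 0.180. The bin of the highest difference, from 55320001 to 55340000, stood at 0.414 and 0.435 in wildtype and 0.647 and 0.676 in knock-out (difference 0.237, adjusted p = 0.00372). In the inner part the knock-out libraries still differed, with 5 bins over the genome's 99th percentile of the gap. After the running mean was subtracted the flank's difference was 0.00559, and after quantile normalization it was 0.0539. Without knock-out library 2 the flank's difference was 0.0389, with 10 bins called higher and 5 lower, and without knock-out library 1 it was 0.162, with 25 called higher.

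**Figure D3:**
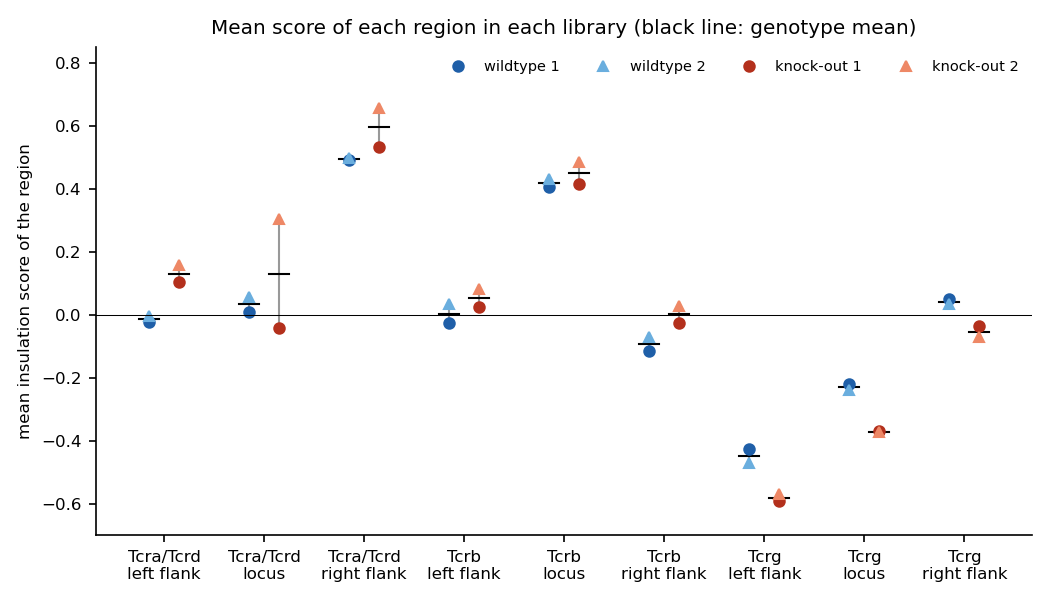
Mean insulation score (vertical axis) of each locus and flank (horizontal axis) in each library, with circles for library 1, triangles for library 2 and black lines for the genotype means. The knock-out libraries stand far apart at the Tcra/Tcrd locus, at -0.0440 and 0.305, and nearly coincide at the Tcrg locus, at -0.370 and -0.373.

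Tcrb kept a domain-shaped profile in every library, and its scores did not separate the genotypes. Its 38 bins averaged 0.405 and 0.431 in wildtype and 0.416 and 0.484 in knock-out, so the ranges overlapped. The means were 0.418 ± 0.0184 and 0.450 ± 0.0480 (SD, n = 2), a difference of 0.0319 with p = 0.667 in the exact two-sided permutation test. limma called 0 of the 38 bins, beside 11.2% in each direction over the genome, with 2 at an unadjusted p below 0.05. Its fit without a trend also called 0. Single bins differed by -0.0217 to 0.126, and both knock-out libraries lay above both wildtype libraries in 6 of 38, beside 31.0% over the genome. Without knock-out library 1 limma called 4 bins higher, and without wildtype library 2 it called 1. The difference turned to -0.00202 without knock-out library 2, to -0.00564 after the running mean was subtracted and to -0.00110 after quantile normalization.

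Along Tcrb the score climbed from near 0 at the Moxd2 side to a maximum inside the locus. In the bin from 40820001 to 40840000 it was -0.0190 and 0.00108 in wildtype and -0.00930 and 0.0373 in knock-out. At the highest wildtype bin, from 41260001 to 41280000, it was 0.749 and 0.732 in wildtype and 0.692 and 0.829 in knock-out, and the wildtype values lay between the knock-out values. The first 380 kb averaged 0.284 and 0.290 in wildtype and 0.281 and 0.331 in knock-out. The last 380 kb averaged 0.525 and 0.571 in wildtype and 0.550 and 0.636 in knock-out. The groups overlapped in both stretches. The highest difference of the locus, 0.126 (SE 0.0426, adjusted p = 0.0578), was in the bin from 41500001 to 41520000, where wildtype stood at 0.107 and 0.221 and knock-out at 0.265 and 0.315.

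Higher scores near Tcrb were called in its right flank, on the Ephb6 side, and the difference between its flanks was not tested. The right flank averaged -0.116 and -0.0697 in wildtype and -0.0265 and 0.0284 in knock-out, a difference of 0.0936, and 8 of its 25 bins were called higher, beside 11.2% over the genome and 12.97% over the rest of chromosome 6. These 8 bins formed a run from 41860001 to the edge of the window at 42060000, at -0.214 and -0.216 in wildtype and -0.0667 and -0.00274 in knock-out, a difference of 0.180. The highest difference of the run, in the bin from 42000001 to 42020000, was 0.229 (adjusted p = 0.00747). With wildtype library 1 or wildtype library 2 left out, 3 of the 8 calls were left, and after subtraction of the running mean the flank's difference was 0.00518. The left flank averaged -0.0281 and 0.0322 in wildtype and 0.0256 and 0.0814 in knock-out, with overlapping groups and 0 of 25 bins called (0 at an unadjusted p below 0.05), and 2 called higher without knock-out library 1.

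The contrast between loci was compared library by library, over 3 pairs of loci. Tcrb exceeded Tcrg by 0.625 and 0.670 in wildtype and by 0.785 and 0.857 in knock-out. This contrast was larger in both knock-out libraries, by 0.173 on average, with p = 0.333 in the exact permutation test, the smallest possible, and 0.5 after Benjamini-Hochberg adjustment over the 3 pairs. Tcra/Tcrd exceeded Tcrg by 0.229 and 0.297 in wildtype and by 0.326 and 0.678 in knock-out, with the same p-values. Tcra/Tcrd minus Tcrb was -0.396 and -0.374 in wildtype and -0.460 and -0.179 in knock-out, with overlap and an exact permutation p of 1. None of the 3 contrasts passed the threshold, which this design cannot reach.

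The shape of the profile was alike in all libraries at Tcrb and Tcrg and less so at Tcra/Tcrd. Across the 88 bins of the Tcrb window, Pearson's r was 0.989 within wildtype, 0.996 within knock-out and 0.982 to 0.988 across genotypes. Across the 62 bins of the Tcrg window it was 0.991, 0.992 and from 0.980 to 0.985. Across the 73 bins of the Tcra/Tcrd window it was 0.987 within wildtype and 0.880 within knock-out, below the range of 0.920 to 0.975 across genotypes. These values are descriptive, since neighbouring bins share contacts and are not independent.

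Boundaries are the local minima that separate domains, and 3 were found in these windows. Over the genome 1905 minima were at least 0.2 deep in the mean profile of the 4 libraries, where depth is the drop from the higher scores within 200 kb on either side. Of these, 3 lay in the windows, which is 1.35% of the 223 scored bins beside 1.62% over the genome, with 1 inside Tcrb and 2 in the flanks of Tcrg, and the scored part of the Tcra/Tcrd window held 0. limma called none of the 3 depths changed, with 0 at an unadjusted p below 0.05, beside 23 of 1905 (1.21%) over the genome.

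The Tcrb boundary, from 40820001 to 40840000, was near the Moxd2 end of the locus. Its depth was 0.218 and 0.241 in wildtype and 0.259 and 0.257 in knock-out, a difference of 0.0282 (SE 0.0306, adjusted p = 0.679). The lower Tcrg boundary, from 19060001 to 19080000, lay in the left flank, with 0.288 and 0.323 in wildtype, 0.253 and 0.292 in knock-out and a difference of -0.0330 (adjusted p = 0.655). Its place was loose, with the minimum at 19020001 and 19000001 in the wildtype libraries and at 19100001 in both knock-out libraries. Placed at the minimum of the knock-out profile, the depth difference was 0.0232, in the other direction. The upper Tcrg boundary, from 19760001 to 19780000, was the deepest and lay in the same bin in all 4 libraries. Its depth was 0.579 and 0.550 in wildtype and 0.501 and 0.525 in knock-out, a difference of -0.0522 (SE 0.0446, adjusted p = 0.593). At that boundary the scores themselves were close, at -0.298 and -0.300 in wildtype and -0.314 and -0.369 in knock-out.

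The authors also gave 1 insulation profile per genotype in 10 kb bins, which has no replicates and therefore no test. At Tcrg it had the sign of the single libraries in 24 of 24 bins, with a locus mean of -0.287 in wildtype and -0.405 in knock-out, and the left flank was lower in 50 of 50 bins. At Tcrb it gave 0.273 in wildtype and 0.277 in knock-out. There the first 380 kb was lower in knock-out in 37 of 38 bins (0.150 against 0.114), whereas the single libraries differed by 0.0186 in the other direction with overlapping groups. The last 380 kb was higher in 31 of 38 bins (0.395 against 0.440). Over all 227822 bins of these profiles, 108394 were higher and 119428 lower in knock-out.

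At Tcra/Tcrd the 10 kb profiles listed 42 of 190 bins of the locus, with means of 0.0457 in wildtype and 0.0793 in knock-out. The right flank was higher in 43 of 50 bins, at 0.344 and 0.430. The left flank was higher in 40 of 50 bins, but by less than in the single libraries, at -0.0636 in wildtype and -0.0262 in knock-out, a difference of 0.0374 in place of 0.144. The 4 listed bins of the first segment were lower, at -0.477 and -0.578, where the 1 bin of the single libraries differed by 0.0526.

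The compartment eigenvector divides chromosomes into 2 sets of regions at a coarser scale, and its positive sign commonly marks the active one. It was given as 1 profile per genotype in 200 kb bins, again without replicates, and its size cannot be compared between chromosomes. Tcrb was positive in 4 of 4 bins in both genotypes, with a mean of 0.0144 in wildtype and 0.0131 in knock-out. The bin from 41200001 to 41400000 was nearest to 0, at 0.00163 and 0.000710, and the right flank was negative in both genotypes, down to -0.0389 and -0.0371 in the bin from 41800001 to 42000000.

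Tcrg lay on a compartment slope. The bin from 19000001 to 19200000, before the locus, stood at -0.0418 in wildtype and -0.0403 in knock-out. The bin with most of the locus, from 19200001 to 19400000, stood at 0.0105 and 0.00753. The bin from 19400001 to 19600000, with the rest of the locus, stood at 0.0399 and 0.0320, a difference of -0.00799 beside an SD of differences over chromosome 13 of 0.00590. In the left flank the bin from 18800001 to 19000000 changed sign, from 0.00325 to -0.00176. Its difference of -0.00501 was smaller in size than that SD. The median over chromosome 13 also moved down, from 0.008465 in wildtype to 0.00551 in knock-out. Sign changes occurred in 22 of 558 bins (3.94%) of chromosome 13.

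Tcra/Tcrd had an eigenvector in 4 of 9 bins of the locus, with a mean of 0.0132 in wildtype and 0.00883 in knock-out. The first bin, from 53000001 to 53200000, changed sign, from 0.00764 to -0.00283, a difference of -0.0105 beside an SD of differences over chromosome 14 of 0.00432, and 11 of 558 bins of that chromosome (1.97%) changed sign. The next bin, from 53200001 to 53400000, was negative in both genotypes, at -0.0183 and -0.0193. Both overlap the block without insulation scores. On the Dad1 side the bins from 54400001 to 54800000 were positive, at 0.0246 and 0.0389 in wildtype and 0.0213 and 0.0362 in knock-out, and the left flank was positive throughout, from 0.0428 to 0.0503 in wildtype and from 0.0398 to 0.0501 in knock-out.

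**Figure D4:**
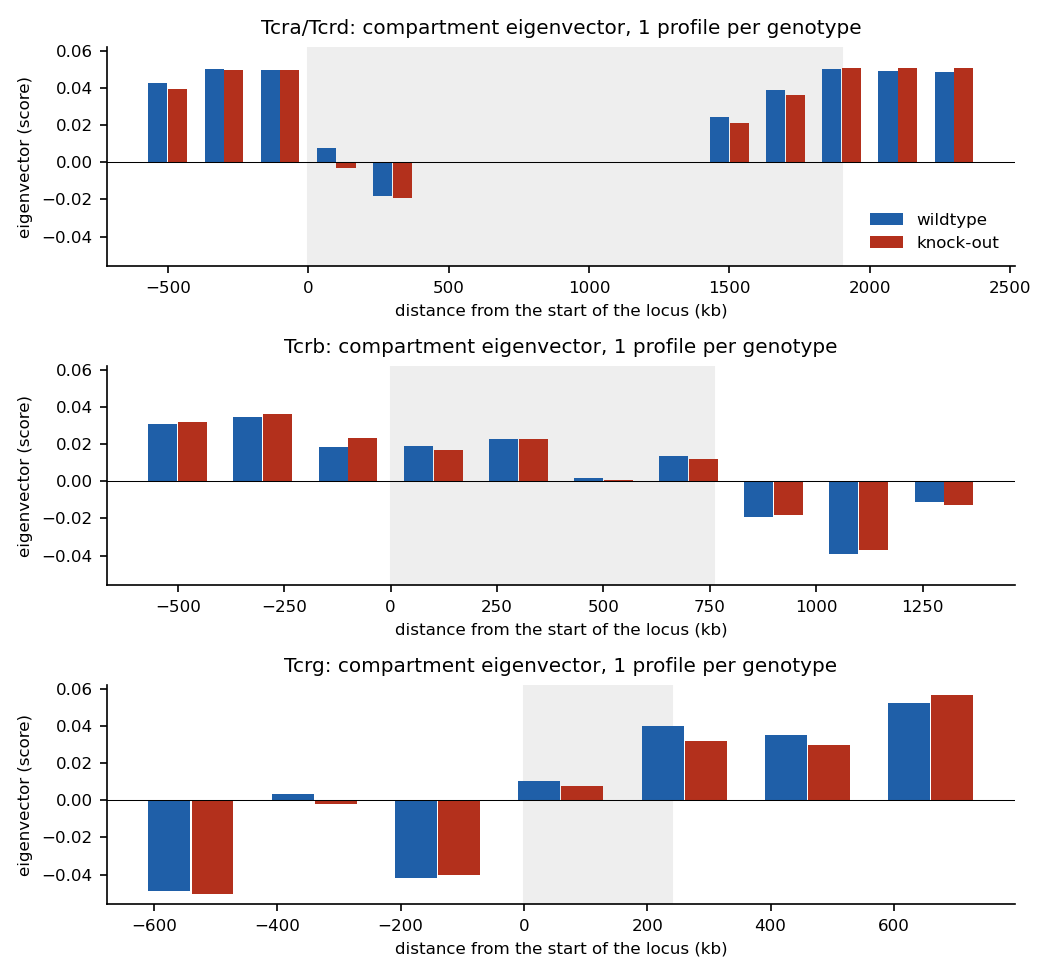
Compartment eigenvector (vertical axis, score) of each listed 200 kb bin for wildtype and knock-out, 1 deposited profile each, against the distance in kb from the start of the locus, with the locus shaded. Signs are shared except in the first bin of Tcra/Tcrd, at 0.00764 and -0.00283, and in 1 bin of the left flank of Tcrg, at 0.00325 and -0.00176.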

How the data were processed

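The authors deposited insulation scores of 4 single Hi-C libraries in 20 kb bins, and insulation and eigenvector scores as 1 profile per genotype in 10 kb and 200 kb bins, per the file headers. No source used here gives the log base, the insulation window, read numbers, the aligner or the pooling, and depth is unknown. Coordinates are mm9, per the submitters' processing notes. Groups came from the genotype label, and library numbers from accession order. Both libraries numbered 2 carry a suffix T1 in their titles, whose meaning is unknown here.

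Bins scored in all 4 libraries were tested with limma 3.58.1 in R 4.3.3 (genotype as the only term, eBayes with a trend), with Benjamini-Hochberg adjustment over 117252 bins at 0.05, after a check on simulated data. Region means were compared by exact permutation. Boundaries were minima over 10 bins on each side of the mean profile, at least 0.2 deep, with all of those bins scored in all 4 libraries. Their depths were tested likewise. Named items were every locus, flank, 380 kb segment and boundary, every run of at least 3 called bins joined within 50 kb, the bins of highest and lowest difference in each locus, and 200 kb bins that changed sign. Other bins (ends, peaks and the widest gap of a locus) were chosen after their values were seen. The regions and lists were chosen with earlier results of these data known. Alternatives were other scalings, no trend, leaving out each library, and other boundary settings, flanks and summaries. No sequence is shown, since no mm9 genome was used here.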

Additional observations from a re-analysis of the deposited data

How the results depend on the processing

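Dividing each library by its SD or quantile-normalizing left higher calls at Tcra/Tcrd and Tcrb and lower calls at Tcrg but moved the split of higher and lower calls over the windows from 35 and 32 to 32 and 15, and to 30 and 11. The Tcrg window then held 15 and 11 lower calls in place of 32, and the locus 5 and 1 in place of 11, with differences of -0.274 (in SD units) and -0.101. Subtracting the running mean left 0 calls in the genome and in all windows, with 10616 higher and 11263 lower bins at an unadjusted p below 0.05, and -0.0129 at Tcrg. The 10 kb profiles gave -0.118 at Tcrg. In the first segment of Tcra/Tcrd, a single bin, the difference turned to -0.0880 after the running mean was subtracted and to -0.101 in the 10 kb profiles; the cause was not tested. At a minimum depth of 0.3, 1 boundary was left in the windows. Subtracting chromosome medians moved the eigenvector difference from -0.00128 to 0.000717 at Tcrb and from -0.00300 to -4.5e-05 at Tcrg.

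Leaving out 1 library at a time, where the lone library is assumed to vary like the other genotype, gave 4811 to 15490 higher and 3872 to 15733 lower calls over the genome. The Tcra/Tcrd window held 17 to 68 higher and 0 to 7 lower calls, and its locus 0 to 22 and 0 to 2, with a difference from -0.0769 to 0.272. The Tcrb window held 3 to 16 higher calls and its locus 0 to 4, with -0.00202 to 0.0659. The Tcrg window held 2 to 28 lower calls and its locus 0 to 10, with -0.151 to -0.132. The titles share no replicate numbers across genotypes, but library 2 of each genotype carries the suffix T1, whose meaning is not given. Over the genome, libraries of one suffix did not deviate together (r = -0.0551 between the wildtype and knock-out gaps over 117252 bins). In each window, however, the mean gap, library 2 minus library 1, had the same sign in both genotypes. It was 0.0240 in wildtype and 0.171 in knock-out at Tcra/Tcrd, 0.0415 and 0.0608 at Tcrb, and -0.0290 and -0.00528 at Tcrg. The part of the suffix in these gaps was not tested. With that suffix as a replicate block, chosen after seeing the data, limma called 12929 bins higher and 13843 lower over the genome, 9 lower in the Tcrg locus, and 1 higher each in the Tcra/Tcrd and Tcrb loci in place of 0. Of 415 alternative values, 341 kept the direction and the side of the threshold or moved by less than the spread, or by less than 1.5 times for counts. Where the genotypes overlapped, these include changes of direction, as from 0.0974 to -0.0769 at the Tcra/Tcrd locus. They also include counts that stayed at 0. Of the other values, 72 moved by more and 2 reversed in direction. The same bins enter these values repeatedly, within loci, flanks, segments and windows. The direction of the locus mean difference was kept in 9 of 10 alternatives at Tcra/Tcrd, 7 of 10 at Tcrb and 10 of 10 at Tcrg. Unknown depth, 2 libraries per genotype and the unscored block limit what the windows can show.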
